A study of Homo sapiens with 24 samples.

Results

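The resting transcriptome of HEK293 cells was described from the 3 arrays of unstimulated control cells, which were chosen by their label from the 24 arrays of the series. HEK293 is an established line of human embryonic kidney cells that was immortalised with adenovirus DNA. The study asked whether the deacetylase SIRT6 influences the transcription that TNFα drives through NFκB, and it measured 8 conditions with 3 biological replicates each on Affymetrix HG-U133 Plus 2.0 arrays. The methods list no DNA among the transfections and give 24 h in medium with transfection complexes before stimulation. The unstimulated cells then received the vehicle, PBS with bovine serum albumin, in place of the 10 ng/ml TNFα given to the stimulated cells. Stimulation lasted 4 h according to the methods and 1 h according to the design text. A figure legend of the paper describes control cells as transfected with no DNA, while its results call them untransfected. The labels of these 3 arrays name no plasmid, and they do not settle whether the cells still met the transfection reagent. All values below are levels in these unstimulated cells, and no other condition was compared with them.

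TNFα is the cytokine that binds the receptors TNFR1 and TNFR2. TNFR1 recruits the adaptor TRADD, ubiquitin ligases and the TAK1 and IKK kinases, and IKK marks the IκB inhibitors for destruction so that NFκB dimers enter the nucleus and switch on chemokine, adhesion and feedback genes. HEK293 cells are widely used hosts for receptors introduced by transfection, for which it matters which receptors and adaptors the cells already transcribe.

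The array reported on 19775 genes, each read here by its probe set with the highest mean log2 RMA value. Probe sets bind their transcripts with different efficiency, so a value places a gene within the distribution of this array and does not rank transcripts of different genes by amount. The RNA came from whole wells, in which few cells with much of a transcript and many cells with little of it cannot be told apart. Background was set at the 95th percentile of genes restricted to other tissues, which fell at a log2 value of 5.53, and the high band began at the 90th percentile of all genes, at 10.91. Of all genes 11849, or 59.9%, had a mean above background and 11568, or 58.5%, lay above it on all 3 arrays. The high band held 1978 genes, or 10% by its definition, 9871 genes were middling, and 7926 lay at background.

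The 2 reference lists fell at opposite ends of this distribution. The tissue-restricted list names products of testis, skin, pancreas, lung, tooth and other organs. Of its 70 measured genes 66 lay at background by construction, with a median of 3.57. The surfactant gene SFTPC at 8.32 ± 0.26 (SD, n = 3) and the enamel gene AMBN at 7.61 ± 0.12 stood far above the rest of that list. All 19 housekeeping genes lay above background and 15 of them in the high band, with a median of 12.32. β-actin gave 13.30, 13.40 and 13.30 on replicates 1 to 3 and GAPDH 13.09, 13.06 and 13.07, and the lowest of the list, the RNA polymerase II subunit POLR2A, gave 9.78, 9.78 and 9.83.

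**Figure D1:**
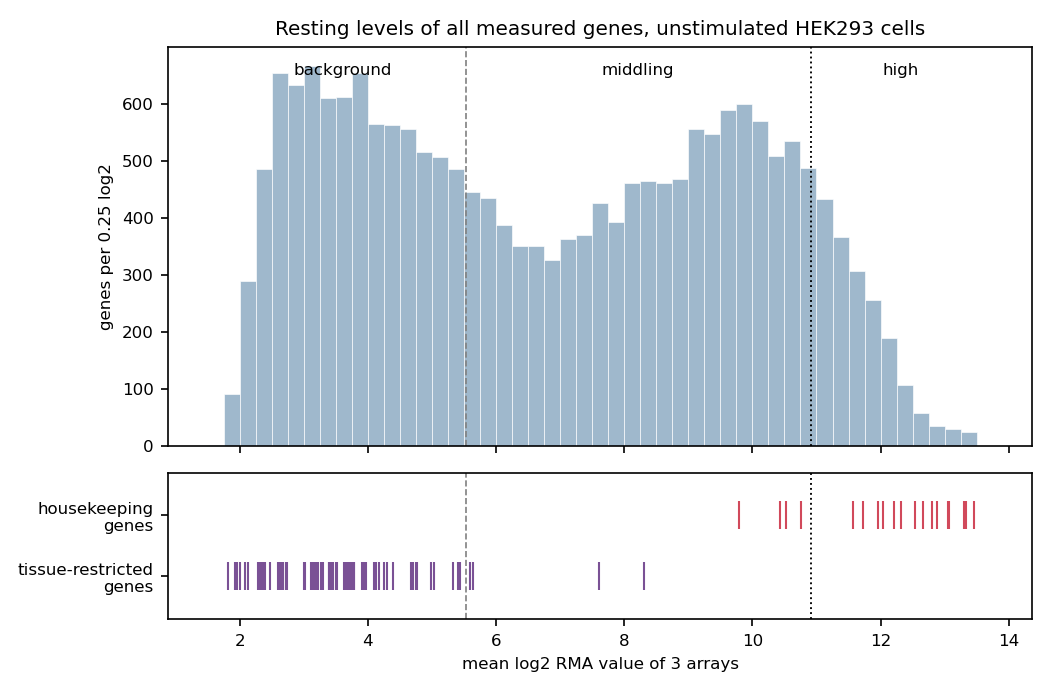
Number of genes (y axis) by mean log2 RMA value of the 3 unstimulated arrays (x axis, bins of 0.25), with the members of the 2 reference lists as ticks underneath. The dashed line is the background bound at 5.53 and the dotted line the high bound at 10.91. The 19 housekeeping genes all lie above the dashed line, and 66 of the 70 tissue-restricted genes lie below it.

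The 3 arrays were alike over most genes, and replicate 2 stood a little apart. Their values correlated across genes at 0.9965 to 0.9988, which describes the arrays and is no test, and the median SD of a gene was 0.052 in the high band, 0.10 in the middling band and 0.15 at background. Replicate 2 was the array farthest from the middle value for 57.4% of all genes and 63.9% of the genes above background. It was so for 192 of the 209 genes above background whose SD was over 0.3. Some control probe sets moved with it. The poly-A control lys, a bacterial transcript added to the RNA, read 7.95, 6.89 and 8.17, and the 18S ribosomal RNA control read 10.60, 9.85 and 10.63 on replicates 1 to 3. The hybridisation control cre was instead highest on replicate 2, with 13.46, 13.61 and 13.52. Another hybridisation control, bioB, was lowest there, with 9.40, 9.14 and 9.45. Whether these shifts have a part in the values of single genes was not tested. Without replicate 2 the bound moved to 5.40, and 51 TNF pathway genes, 15 TNF-inducible genes, 183 receptors and 62 lineage markers lay above it, against 51, 13, 177 and 61 with all 3 arrays.

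Resting cells held transcripts for most of the route from the TNF receptor to NFκB, and the ligand lay at background. Of 63 measured genes of the pathway 51 lay above background, which is 81.0% beside 59.9% of all genes, and their median was 8.55 beside 6.79 over all genes. The 12 genes at background included the ligands, TNFR2 and 2 genes of necroptosis.

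The ligand and receptor genes split between background and the middle of the range, with 2 of 6 above background, beside 59.9% of all genes. TNF gave 3.63, 4.30 and 3.77 on replicates 1 to 3, and LTA and LTB, which encode the lymphotoxins that use the same receptor family, gave 3.71, 4.21 and 4.11 and 5.21, 5.28 and 5.10. Every one of these values was under the bound. TNFRSF1A, the gene of TNFR1, gave 8.95, 8.56 and 8.68, all middling. TNFRSF1B, which encodes TNFR2, the receptor found mostly on immune and endothelial cells, gave 4.33, 4.68 and 4.25, all at background and clear of the bound. The sheddase gene ADAM17, whose product cuts TNFα from the membrane, was the steadiest of these 6 genes at 10.14, 10.14 and 10.13.

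The promoters of the 2 receptor genes are shown because their letters go against the trend over all genes that is described further on. Both are the 250 bases before the start given by RefSeq, on GRCh38.p14, with every CpG in capitals. TNFRSF1A, above background, lies on the minus strand at chr12:6342077-6342326 and holds 4 CpG. TNFRSF1B, at background, lies on the plus strand at chr1:12166741-12166990 and holds 22.
TNFRSF1A: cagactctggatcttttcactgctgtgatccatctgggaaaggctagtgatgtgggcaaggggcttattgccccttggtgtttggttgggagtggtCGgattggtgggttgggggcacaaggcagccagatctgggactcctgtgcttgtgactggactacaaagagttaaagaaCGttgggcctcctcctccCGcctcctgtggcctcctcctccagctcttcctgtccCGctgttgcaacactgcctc
TNFRSF1B: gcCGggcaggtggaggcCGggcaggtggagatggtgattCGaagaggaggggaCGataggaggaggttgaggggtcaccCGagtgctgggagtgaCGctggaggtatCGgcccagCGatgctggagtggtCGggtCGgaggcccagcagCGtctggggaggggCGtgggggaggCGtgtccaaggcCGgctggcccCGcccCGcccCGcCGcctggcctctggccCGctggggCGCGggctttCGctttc

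Of 13 listed genes of the complex that gathers on TNFR1, 8 were measured here. All 8 lay above background on every array, beside 58.5% of all genes, with a median of 9.0. UBE2N, the enzyme that joins ubiquitin into lysine-63 chains, was in the high band at 11.54, 11.53 and 11.54. The genes of the linear ubiquitin ligase followed at 9.44, 9.15 and 9.49 for RBCK1, 8.51, 8.50 and 8.59 for RNF31 and 7.19, 6.87 and 7.15 for SHARPIN. The ubiquitin ligases BIRC2 and XIAP read 8.75, 8.85 and 8.77 and 9.43, 9.67 and 9.40, and the adaptor TRAF5 read 9.23, 9.21 and 9.20. TRADD, the adaptor that first meets the death domain of TNFR1, was the lowest of the 8 at 6.74, 6.57 and 6.76, still clear of the bound.

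The kinases of the pathway were present in the same way, with a median of 9.08. Of 10 genes 9 lay above background and 8 did so on all arrays, beside 59.9% and 58.5% of all genes. TAK1, encoded by MAP3K7, gave 10.37, 10.22 and 10.33, and its partner TAB2, which binds ubiquitin chains, gave 10.92, 10.96 and 10.89, at the edge of the high band. TAB3 read 9.97, 9.98 and 9.88, TAB1 read 7.51, 7.38 and 7.47 and the kinase gene MAP3K3 read 9.70, 9.46 and 9.57. The IKK subunits were all middling. CHUK, which encodes IKKα, read 9.93, 10.33 and 10.01, IKBKB, which encodes IKKβ, read 8.63, 8.57 and 8.57, and IKBKG, which encodes the scaffold NEMO, read 7.15, 7.10 and 7.18. MAP3K14, which encodes NIK, the kinase of the alternative NFκB route, straddled the bound at 5.52, 5.43 and 5.78, so that the 3 arrays did not place it on one side. MAP3K8, which encodes TPL2, lay at background with 4.56, 5.17 and 5.01.

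Among the 5 NFκB subunits RELA was the nearest to the high band. RELA, which encodes p65, the main transactivating subunit, read 10.60, 10.47 and 10.56, and REL read 8.62, 8.46 and 8.65. The precursor genes NFKB1 and NFKB2 read 7.59, 7.43 and 7.59 and 6.91, 6.87 and 6.94. RELB, the subunit of the alternative route, read 4.97, 6.00 and 5.36 and was above the bound on replicate 2 alone, with an SD of 0.52, so its place was not settled.

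The genes that hold NFκB back were transcribed at rest. Of the 7 measured IκB genes and regulators 6 lay above background on all arrays, beside 58.5% of all genes. NFKBIA, which encodes IκBα, the inhibitor that is both destroyed and resynthesised after TNFα, read 8.30, 8.0 and 8.26, and NFKBIB read 8.66, 8.40 and 8.76. NFKBIE read 6.93, 7.29 and 6.95 and NFKBIZ, a nuclear member, read 7.85, 7.75 and 7.79. The RAS-like regulators NKIRAS1 and NKIRAS2, which bind IκB proteins, read 8.09, 7.85 and 7.96 and 9.81, 9.53 and 9.68. NFKBID lay at background with 4.94, 5.28 and 4.92. Of 10 further negative regulators 9 lay above background, beside 59.9% of all genes. The deubiquitinase genes CYLD and OTULIN read 8.45, 8.48 and 8.43 and 10.08, 10.08 and 10.12, and TAX1BP1 and TNIP1, which encode partners of the ubiquitin-editing enzyme A20, read 10.71, 10.66 and 10.68 and 10.08, 9.93 and 9.94. TNFAIP3, the gene of A20 itself, was only just above the bound at 6.06, 5.83 and 6.15, and its other probe set lay at background with a mean of 4.77. TRAF1, a gene that NFκB induces, lay at background with 4.54, 4.59 and 4.34.

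The 2 ways in which TNFR1 can lead to cell death differed in their genes. Of 7 genes of the death branch 5 (71.4%) lay above background, beside 59.9% of all genes. Apoptosis genes were middling, with 8.81, 8.63 and 8.80 for the adaptor FADD, 8.67, 9.15 and 8.67 for the initiator caspase CASP8 and 8.53, 8.50 and 8.75 for its inhibitor CFLAR. The necroptosis genes lay at background, with 4.37, 4.33 and 4.18 for the kinase RIPK3 and 3.15, 3.05 and 3.08 for MLKL, whose product breaches the membrane. No array came near the bound for either. In the MAP kinase branch 8 of 10 genes lay above background. JUN was in the high band at 11.48, 11.44 and 11.49, and the JNK genes MAPK8 and MAPK9 read 10.81, 10.76 and 10.78 and 10.17, 10.00 and 10.12, while the neuronal JNK gene MAPK10 lay at background with 4.32, 4.06 and 4.41. FOS, the partner of JUN in AP-1, lay at background with 4.82, 4.78 and 4.73.

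**Figure D2:**
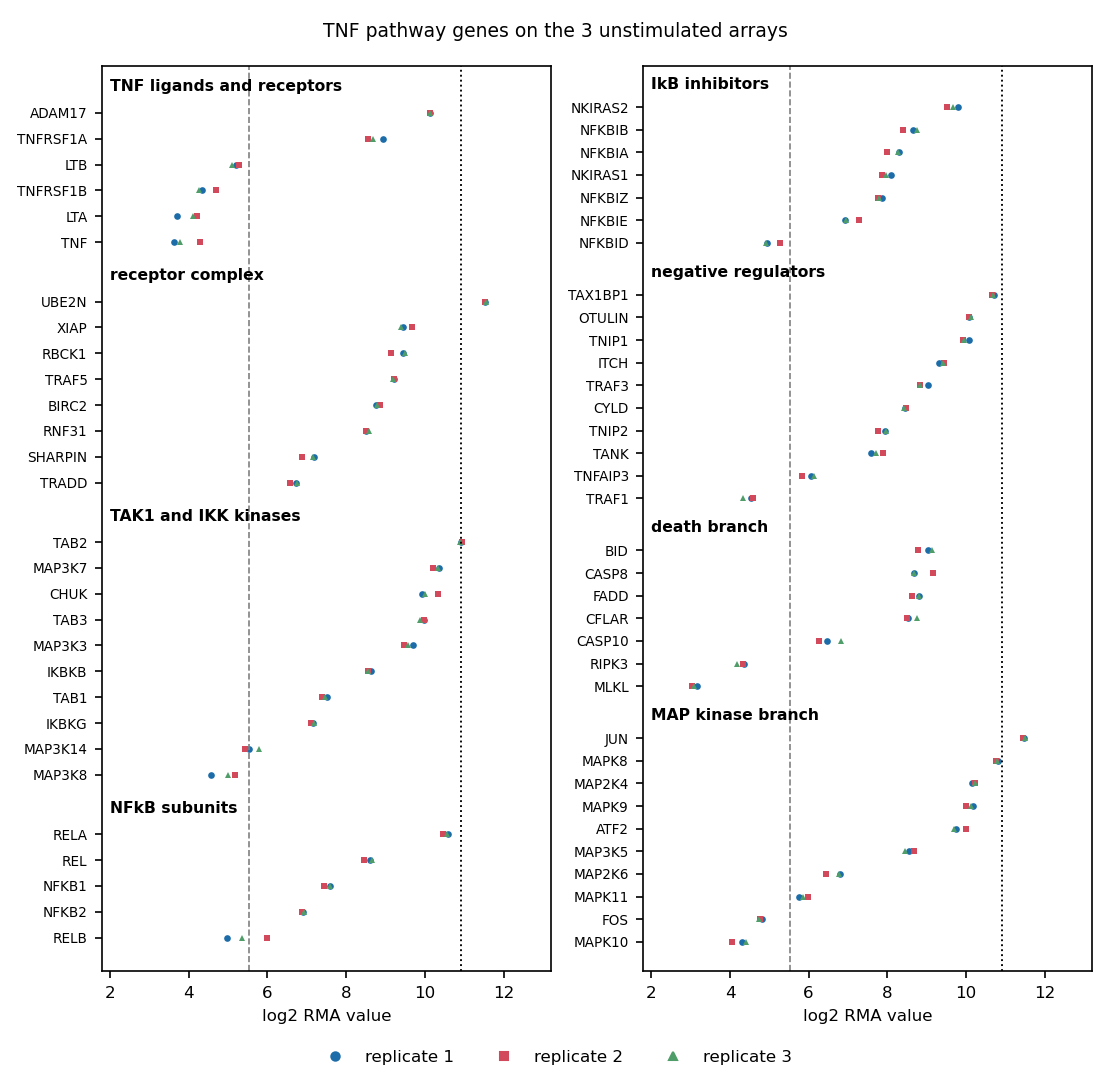
Log2 RMA value (x axis) of each measured TNF pathway gene (y axis, grouped by role) on each of the 3 unstimulated arrays, 1 marker per replicate. The dashed line is the background bound at 5.53 and the dotted line the high bound at 10.91. TNF, LTA, LTB, TNFRSF1B, RIPK3 and MLKL lie left of the dashed line on all 3 arrays, and the 8 receptor complex genes lie right of it.

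The genes that TNFα is known to induce lay lower at rest than the pathway that induces them. Both lists were chosen with earlier results of these data known, so their shares above background describe the lists. Of 42 measured genes 13 lay above background, which is 31.0% beside 59.9% of all genes, with a median of 4.70. A lower bound of 4.80, taken from the olfactory receptor genes, put 21 of them above background. Secreted factors accounted for most of those at background. Of 18 chemokines and cytokines 1 lay above the bound, the growth factor gene CSF1 with 5.86, 5.48 and 5.87, and it did so on 2 of 3 arrays. CXCL3 was above it on replicate 1 alone, with 5.59, 5.10 and 5.52. The monocyte chemokine CCL2, which encodes MCP1, gave 4.76, 4.72 and 4.96, the neutrophil chemokines CXCL8 and CXCL1 gave 4.83, 4.34 and 4.43 and 3.31, 3.58 and 3.36, and CXCL10, which attracts T cells, gave 3.03, 3.22 and 2.77. IL6 gave 4.63, 5.13 and 4.75. All of these lay at background, and CXCL5, the lowest of the list, had 10.1% of all genes below it.

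Adhesion and surface genes were also mostly at background, with 3 of 10 above background. The endothelial selectin SELE gave 2.89, 2.79 and 2.94, VCAM1 gave 3.28, 3.09 and 3.28 and ICAM1 gave 4.92, 5.42 and 4.73, all under the bound. SDC4, a heparan sulfate proteoglycan of many adherent cells, gave 9.11, 8.91 and 9.13, CD83 gave 8.39, 8.31 and 8.47 and NINJ1, whose product acts in membrane rupture, gave 7.77, 7.31 and 7.73. Of the intracellular genes 9 of 14 lay above background on all arrays, which is near the 58.5% of all genes. SOD2, the mitochondrial superoxide dismutase, was in the high band at 12.03, 12.18 and 12.01, read by 1 probe set here. EGR1, an immediate early transcription factor, read 10.79, 10.49 and 10.69, and TNFAIP8 and IER3, both linked to cell survival, read 8.93, 8.96 and 8.82 and 8.94, 8.73 and 8.93. The lowest of this list were PTGS2, which encodes the inducible cyclooxygenase, with 4.28, 3.68 and 3.62, and the protease gene PLAU with 3.93, 4.21 and 3.93.

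**Figure D3:**
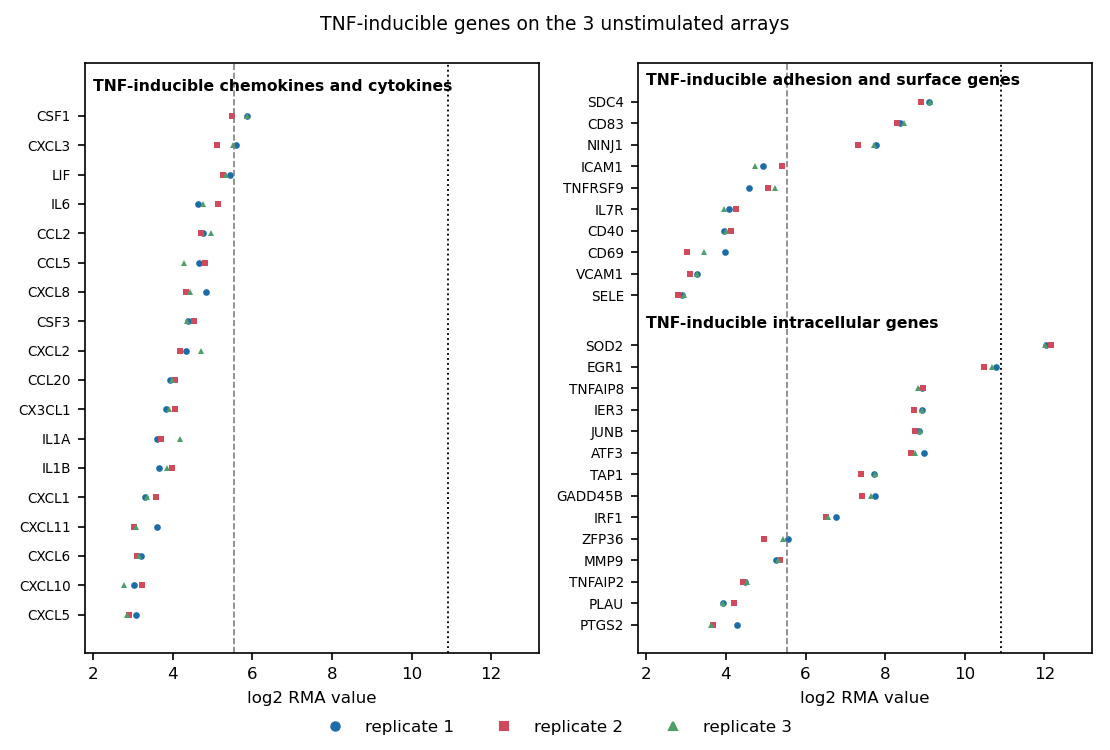
Log2 RMA value (x axis) of each measured TNF-inducible gene (y axis) on each of the 3 unstimulated arrays, 1 marker per replicate, with secreted factors on the left and surface and intracellular genes on the right. The dashed line is the background bound at 5.53 and the dotted line the high bound at 10.91. Of the 18 chemokines and cytokines 16 lie left of the dashed line on all 3 arrays, and SOD2 is the gene right of the dotted line.

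Most of the chemokine genes at background carried NFκB-type letters close to their starts. Promoter windows of RefSeq, from 250 bases before to 50 after each start, were found for 15384 of the measured genes, among them 32 of the 42 TNF-inducible genes. The letters GGANTTTCC, one form of the NFκB motif, stood on either strand in a window of 12 of these 32 genes (37.5%), of 12 of 55 TNF pathway genes (21.8%) and of 2.26% of all genes with a window. The TNF-inducible list was drawn from known NFκB targets, so this share is a description of the list. Of the 12 genes 11 lay at background, TAP1 being the one above it, beside 29 of all 42 measured TNF-inducible genes. Over the whole array 40.1% of genes lay at background. Of the 12 TNF pathway genes with the motif, LTB and MAP3K8 lay at background and the others were middling. In 10 of the 12 TNF-inducible genes the motif began between 71 and 91 bases before the start. The stretches below show the motif in capitals as it reads on the strand of the gene. All run from base 100 to base 51 before the start except that of CXCL10, which runs from base 200 to base 151. The first 9 belong to genes at background and the last pair to the inhibitor genes NFKBIA and TNFAIP3, which were middling. Coordinates are on GRCh38.p14.
CXCL1 (chr4:73869293-73869342, plus strand): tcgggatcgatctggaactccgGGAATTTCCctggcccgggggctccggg
CXCL2 (chr4:74099246-74099295, minus strand): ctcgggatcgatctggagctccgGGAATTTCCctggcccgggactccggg
CXCL3 (chr4:74038740-74038789, minus strand): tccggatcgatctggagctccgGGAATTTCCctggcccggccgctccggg
CXCL5 (chr4:73998728-73998777, minus strand): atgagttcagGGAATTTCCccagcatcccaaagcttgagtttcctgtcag
CXCL6 (chr4:73836578-73836627, plus strand): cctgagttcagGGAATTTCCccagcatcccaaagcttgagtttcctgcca
CXCL8 (chr4:73740469-73740518, plus strand): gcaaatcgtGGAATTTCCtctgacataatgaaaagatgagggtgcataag
CXCL10 (chr4:76023648-76023697, minus strand): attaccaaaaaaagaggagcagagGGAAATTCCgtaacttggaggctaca
CXCL11 (chr4:76036121-76036170, minus strand): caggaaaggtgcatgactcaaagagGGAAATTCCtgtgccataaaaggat
IL6 (chr7:22727100-22727149, plus strand): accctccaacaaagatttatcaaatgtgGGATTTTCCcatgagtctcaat
NFKBIA (chr14:35404800-35404849, minus strand): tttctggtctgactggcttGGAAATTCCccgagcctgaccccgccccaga
TNFAIP3 (chr6:137867159-137867208, plus strand): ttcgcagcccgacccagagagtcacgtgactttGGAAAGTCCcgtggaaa

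The chemokine stretches fell into near-copies. Over the 24 bases made of 12 on either side of the motif, read in the direction of the motif, CXCL1, CXCL2 and CXCL3 were identical at 21 in each pair and CXCL5 and CXCL6 at 23, and no other pair of the 11 genes exceeded 12. The same 9 bases, read in that direction, stood at CXCL8, which lay at background, and at NFKBIA, which was middling. A match of letters is not a bound site. It stood in 122 of 5630 background genes (2.17%), 197 of 8059 middling genes (2.44%) and 28 of 1695 high genes (1.65%).

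CpG content followed the level bands over the whole array. The observed over expected CpG ratio of a window had a median of 0.86 in the high band, 0.81 in the middling band and 0.37 at background, over 2494, 11851 and 7145 windows. The letters TATAAA stood in a window of 17.2% of background genes, 8.0% of middling genes and 9.26% of high genes. In the TNF lists the windows of the chemokines and cytokines had a median ratio of 0.37, those of the intracellular inducible genes 0.77 and those of the IKK and TAK1 kinases 0.87. CXCL11 held no CpG at all. Among the receptors the order was turned, with a ratio of 0.17 at TNFRSF1A and 0.76 at TNFRSF1B.

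**Figure D4:**
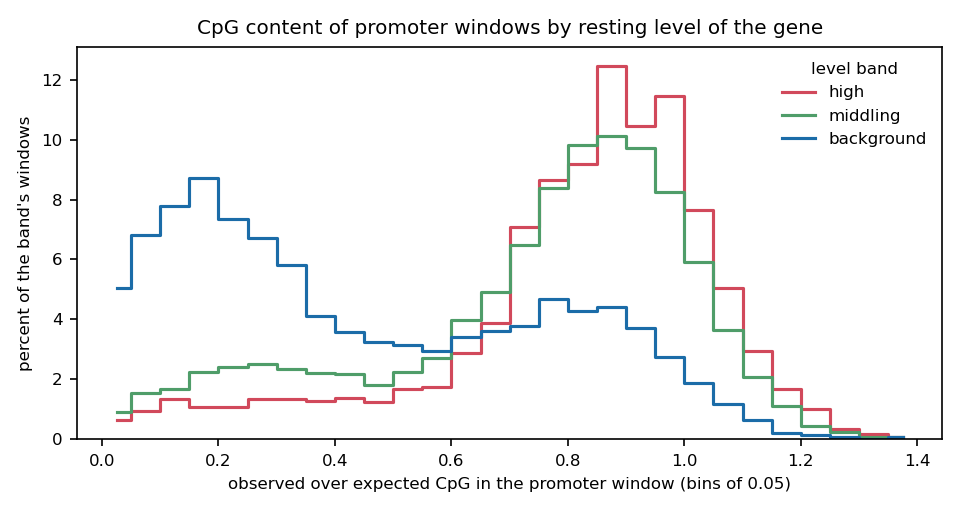
Share of promoter windows (y axis, percent of the windows of a band) by observed over expected CpG (x axis, bins of 0.05), for genes in the high, middling and background bands of the unstimulated arrays. The high and middling bands peak between 0.8 and 1.0, with medians of 0.86 and 0.81, and the background band peaks near 0.2, with a median of 0.37.

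Across the other receptor families the share above background ran from none to all. Of 300 measured receptor, sensor and adaptor genes 177 lay above background, which is 59.0% and close to the 59.9% of all genes. The TNF receptor superfamily beyond the receptors of TNFα itself had 15 of 26 above background. Some receptors of TRAIL were among its highest. TNFRSF10B, which encodes the TRAIL receptor DR5, was in the high band at 12.28, 12.31 and 12.25, and TNFRSF10A, which encodes DR4, read 9.60, 9.48 and 9.62. The decoy receptor TNFRSF10D read 9.19, 9.21 and 9.16, while the other decoy receptor, TNFRSF10C, lay at background with 4.99, 5.08 and 4.86. TNFRSF21 read 10.47, 10.48 and 10.44. The lowest were EDA2R with 3.56, 3.86 and 3.65 and TNFRSF17, the B cell maturation antigen, with a mean of 3.30.

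No Toll-like receptor had a mean above background, in 10 measured beside 59.9% of all genes. TLR4, the lipopolysaccharide receptor, gave 4.21, 4.52 and 4.13, and TLR7, which senses single-stranded RNA, gave 3.49, 3.98 and 3.36. TLR3, the sensor of double-stranded RNA, was the nearest to the bound at 5.65, 4.91 and 5.81, over it on 2 of 3 arrays, and replicate 2 was the low one. The co-receptor genes CD14 and LY96 also lay at background, with 2.46, 2.54 and 2.58 for LY96, which encodes the TLR4 partner MD-2. The signalling genes IRAK1 at 11.42, 11.38 and 11.40, TRAF6 at 8.62, 8.39 and 8.56 and TIRAP at 7.81, 7.59 and 7.83 lay above background on all arrays, as 6 of 9 co-receptors and adaptors did. Of 15 genes of cytosolic nucleic acid sensing 9 lay above background, and both shares, 66.7% and 60%, were near that of all genes. The kinase TBK1 read 9.73, 9.68 and 9.74, the factor IRF3 read 8.88, 8.59 and 8.80 and the adaptor MAVS read 8.65, 8.58 and 8.73, while the inflammasome genes NLRP3 and AIM2 lay at background with 2.82, 2.96 and 2.84 and 2.81, 2.70 and 2.67.

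Of 30 cytokine and interferon receptor genes 17 (56.7%) lay above background, near the 59.9% of all genes. The shared receptor chain IL6ST, which encodes gp130, read 10.65, 10.89 and 10.65, its partner LIFR read 10.10, 10.19 and 10.08 and the interferon gamma receptor chain IFNGR2 read 10.47, 10.41 and 10.46. The chains of blood cells, IL2RG and CSF2RB, lay at background with 2.75, 2.75 and 2.93 and 2.39, 2.23 and 2.15. All 13 receptors of the TGF-β, BMP and activin family lay above background on all arrays, from ENG at 5.98, 6.23 and 5.88 to the activin receptor ACVR2A at 10.56, 10.80 and 10.61. Of 17 WNT, NOTCH and Hedgehog receptors 14 did so too, with NOTCH2 in the high band at 11.53, 11.77 and 11.52 and FZD10 at background with 2.79, 2.83 and 2.79.

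Of 47 receptor tyrosine kinases 29 lay above background and 6 in the high band, the most among the receptor lists in number, and shares near the 59.9% and 10% of all genes. FGFR3, a fibroblast growth factor receptor, read 11.87, 11.82 and 11.89, the ephrin receptor EPHA7 read 11.58, 11.67 and 11.66, the hepatocyte growth factor receptor MET read 11.41, 11.36 and 11.35 and the insulin receptor INSR read 11.23, 11.31 and 11.25. FGFR2 and RYK, at means of 11.25 and 11.14, were the other members of the high band. The endothelial kinases KDR and TEK lay at background with 2.65, 2.44 and 2.43 and 2.65, 2.90 and 2.59, while FLT1 and FLT4, which encode further VEGF receptors, lay above background on all arrays, at means of 8.52 and 7.48. Of 38 nuclear receptors 30 lay above background, among them the circadian repressor NR1D2 in the high band at 11.19, 11.23 and 11.16 and the glucocorticoid receptor NR3C1 at 10.02, 10.41 and 10.10, while NR5A1, the steroidogenic factor of adrenal and gonad, gave 4.36, 4.27 and 3.98.

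Of 71 G protein-coupled receptors 29 (40.8%) lay above background, the lowest share among the larger receptor lists and under the 59.9% of all genes. CXCR4, the receptor of CXCL12, stood out in the high band at 11.39, 11.30 and 11.35, and LGR4, an R-spondin receptor, followed at 10.04, 10.37 and 10.03. ADORA2B, an adenosine receptor, read 9.69, 9.29 and 9.58 and PTGER4, a prostaglandin E2 receptor, read 9.41, 9.41 and 9.40. The lowest, the serotonin receptor HTR2C and the neuropeptide Y receptor NPY1R, gave 2.42, 2.22 and 2.19 and 2.16, 1.94 and 2.10. The olfactory receptors, a family of nasal epithelium, lay at background in 81 of 82 measured genes, the exception being OR51E2 at a mean of 6.46. Of 24 integrins 15 (62.5%) lay above background, near the 59.9% of all genes. They were led by ITGB1, the common β1 chain, at 11.51, 11.65 and 11.47. ITGAE, an integrin chain of lymphocytes, followed at 11.28, 11.33 and 11.36, both genes being in the high band. Of the leukocyte integrins ITGAL lay at background with 3.80, 3.97 and 3.83, and ITGA4 read 8.71, 8.84 and 8.80.

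**Figure D5:**
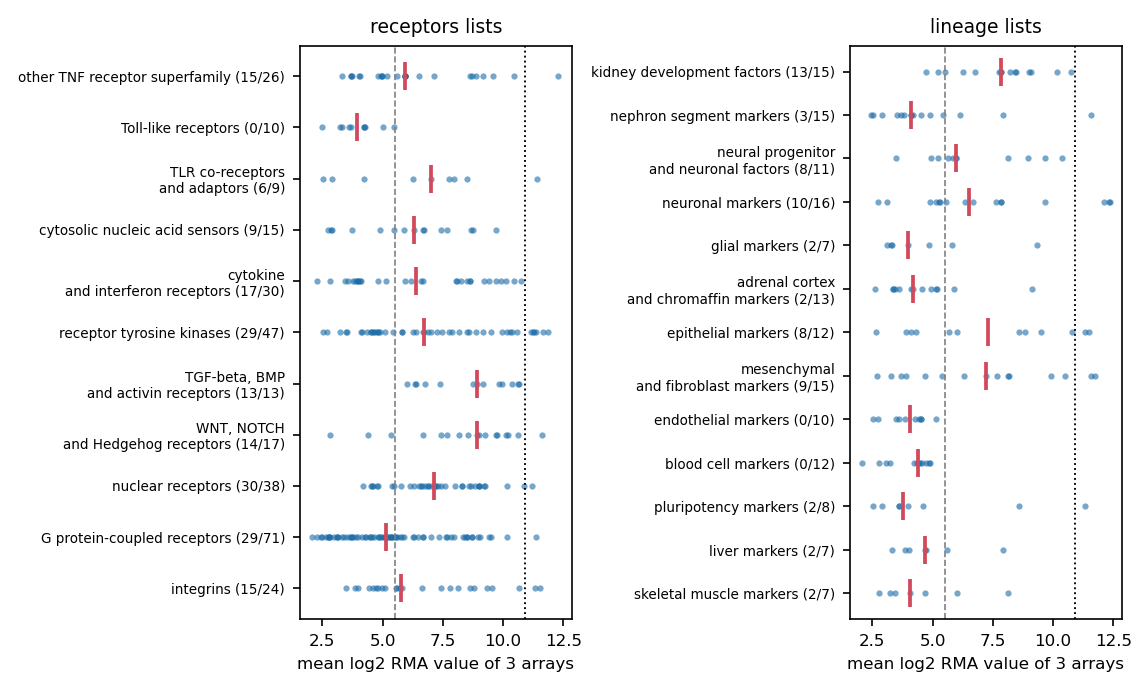
Mean log2 RMA value of the 3 unstimulated arrays (x axis) of each member (blue points) of the receptor lists and the lineage lists (y axis), with the list median as a red bar and, in brackets, the members above background over those measured. The dashed line is the background bound at 5.53 and the dotted line the high bound at 10.91. The 10 Toll-like receptors, 10 endothelial markers and 12 blood cell markers all lie left of the dashed line, and the 13 TGF-β family receptors all lie right of it.

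Lineage markers did not place the cells in 1 tissue. Of 148 measured markers 61 lay above background, which is 41.2% beside 59.9% of all genes. Kidney development factors were mostly present, with 13 of 15 above background and a median of 7.85. SALL1 and WT1, regulators of the embryonic nephrogenic mesenchyme, read 10.81, 10.81 and 10.63 and 10.24, 10.08 and 10.19, and FOXD1, a stromal factor, read 9.19, 8.95 and 9.14. The lowest of the list, PAX2 and RET, which act in the ureteric bud, lay at background with 5.19, 5.26 and 5.18 and 4.59, 5.14 and 4.46, while GATA3 and EMX2, factors of the same structure, read 8.49, 8.29 and 8.53 and 8.44, 8.37 and 8.57. Markers of the finished nephron were mostly at background, with 3 of 15 above it. PODXL, the podocyte sialomucin that other cells also make, was in the high band at 11.57, 11.61 and 11.49, and LRP2, the megalin of the proximal tubule, read 8.07, 7.88 and 7.87. Megalin's partner CUBN and the tubular gene KL gave 2.58, 2.60 and 2.39 and 2.52, 2.44 and 2.38.

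Of 11 neural progenitor and neuronal factors 8 lay above background and of 16 neuronal markers 10, which is 72.7% and 62.5% beside 59.9% of all genes. The factors read 10.32, 10.35 and 10.41 for POU3F2, 9.61, 9.83 and 9.56 for PAX6 and 8.87, 9.01 and 8.97 for SOX2. The proneural factor NEUROG2 lay at background with 3.35, 3.70 and 3.39. Of the neuronal markers 3 were in the high band, namely the neurofilament gene NEFL at 12.31, 12.42 and 12.30, the ubiquitin hydrolase UCHL1 at 12.32, 12.31 and 12.30 and the tubulin gene TUBB3 at 12.16, 12.09 and 12.08. The migration and growth cone genes DCX and STMN2 lay at background with 2.72, 2.85 and 2.67 and 3.03, 3.32 and 2.96. NHLH1 and OLIG2, neural factors that the study names, each crossed the bound between arrays, with 5.69, 4.93 and 5.10 and 6.16, 5.45 and 5.97. Glial markers were above background in 2 of 7, MBP at 9.38, 9.26 and 9.37 and ALDH1L1 at 5.66, 6.01 and 5.71, and GFAP lay under it with 4.83, 4.99 and 4.69.

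Adrenal markers were mostly at background, with 2 of 13 above it, beside 59.9% of all genes. GATA2, a factor of sympathoadrenal cells that blood progenitors also use, read 9.16, 8.99 and 9.17, and PNMT, the adrenaline-forming enzyme, was just above the bound at 5.88, 5.99 and 5.78. The steroidogenic enzyme gene HSD3B2 and the chromogranin CHGA gave 2.55, 2.65 and 2.59 and 3.49, 3.41 and 3.13.

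Of 12 epithelial markers 8 lay above background, and of 15 mesenchymal markers 9 did so, both shares near the 59.9% of all genes. The epithelial list had the tight junction genes TJP1 at 11.44, 11.55 and 11.46 and OCLN at 11.34, 11.36 and 11.32 in the high band and the keratins KRT18 at 10.85, 10.64 and 10.88 and KRT8 at 9.61, 9.32 and 9.59. The mesenchymal list had VIM at 11.80, 11.71 and 11.73 and CDH2, the N-cadherin gene, at 11.51, 11.70 and 11.54 in the high band and the factor TWIST1 at 10.44, 10.50 and 10.47. The epithelial factor GRHL2 and the stromal gene LUM lay at background with 2.70, 2.83 and 2.47 and 2.71, 2.24 and 3.12.

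Endothelial and blood markers lay at background on every array, in 10 of 10 and 12 of 12 genes. The leukocyte gene PTPRC gave 2.84, 2.85 and 2.61 and the T cell gene CD3E gave 1.83, 2.14 and 2.28, and the highest of either list was the endothelial claudin CLDN5 with 5.07, 5.20 and 5.09. Of 8 pluripotency markers 2 lay above background, LIN28B in the high band at 11.20, 11.42 and 11.29 and the methyltransferase DNMT3B at 8.61, 8.54 and 8.66, while LIN28A, the paralogue of LIN28B, gave 2.51, 2.47 and 2.61. Liver and skeletal muscle lists each had 2 of 7 above background. All the counts of this paragraph stand beside 59.9% of all genes above background. FOXA1 at 7.91, 7.94 and 7.97 was the clearest of the liver list and PAX3 at 8.12, 8.10 and 8.21 of the muscle list.

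Position-giving HOX genes were widely transcribed. Above background lay 9 of 10 HOXB genes, 8 of 9 HOXC genes and 6 of 8 HOXD genes, beside 59.9% of all genes. The 1 HOXA gene analysed here, HOXA2, read 6.69. HOXC4, HOXD10 and HOXD13 were in the high band at means of 11.04, 11.10 and 11.02. HOXC12 and HOXD12 lay at background with 3.17 and 3.77 between neighbours that did not. Of 44 keratins 8 (18.2%) lay above background and of 36 interleukins 4 (11.1%) did, beside 59.9% of all genes. The 4 interleukins were IL32 at 8.35, IL17D at 6.86, IL34 at 6.51 and IL15 at 5.84.

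The genes of growth and division filled the upper part of the range. The 15 genes with the highest means were led by ribosomal protein genes and by EEF1A1, the elongation factor, from RPL24 at 13.46 to RPS10 at 13.34. In the high band, which holds 10% of all genes, lay 54 of 59 cytosolic ribosomal protein genes and 25 of 34 proteasome genes. So did 54 of 72 genes of the respiratory chain and ATP synthase, 33 of 56 translation factors and 7 of 8 chaperonin genes. Those at background included copies for muscle or testis, such as RPL3L at 3.37, COX7A1 at 4.06 and PSMA8 at 2.35. They also included widely used genes, RPL36A at 3.65, PSMD5 at 3.73 and EIF4A2 at 2.69. RPL36A and EIF4A2 were each read by 1 probe set here, as probe sets of several genes were left out. Whether their low values belong to the transcripts or to that probe set was not tested. The catalytic proteasome genes PSMB6 and PSMB7 read 12.15 and 12.31, and their interferon-inducible counterparts PSMB9 and PSMB10 read 5.33 and 7.81. PSMB5 read 10.87 and its counterpart PSMB8 3.91, all of these being chosen after their values were seen. Zinc finger genes named ZNF lay above background in 372 of 466 (79.8%), beside 59.9% of all genes.

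All 16 genes of the G2 and M phases lay above background and 8 in the high band, beside 59.9% and 10% of all genes. The cyclin CCNB1 read 11.98, 11.99 and 11.96 and the mitotic kinase AURKA read 11.73, 11.75 and 11.76. All 26 genes of the RB and p53 pathway lay above background too, with a median of 10.28. The cyclin gene CCND2 read 12.27, 12.44 and 12.31, MDM2, whose product marks p53 for destruction, had a mean of 11.95 and the kinase gene CDK4 read 11.78, 11.76 and 11.81. CDKN1C, a kinase inhibitor, was the lowest at 5.79, 5.96 and 6.18. Of 15 BCL2 family genes 13 lay above background. The death-promoting gene PMAIP1, which encodes NOXA, was in the high band at 11.80, 11.76 and 11.85 and the survival gene MCL1 read 10.77, 10.68 and 10.72, while BCL2A1, an NFκB-inducible survival gene of blood cells, gave 2.47, 2.49 and 2.57.

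The genes on which the study turns were all measured at rest. All 7 sirtuin genes lay above background on every array, as 58.5% of all genes did. SIRT1 read 9.03, 9.31 and 8.98, and SIRT4 was the lowest at 6.94, 6.71 and 6.93. SIRT6 read 9.08, 8.0 and 9.14 on its higher probe set, which had the largest SD of all genes above background, 0.64, through its low value on replicate 2. The other SIRT6 probe set read 8.47, 8.27 and 8.41. The next most variable were N4BP2L1 with an SD of 0.61 and FOLR1, a folate receptor, with 0.54. Of 12 Hedgehog, GLI and hypoxia genes 9 (75%) lay above background, beside 59.9% of all genes. HIF1A, the hypoxia factor, was in the high band at 11.50, 11.74 and 11.53, and its target VEGFA read 9.77, 10.02 and 9.62. GLI3, the GLI factor that acts mainly as a repressor, read 10.67, 10.49 and 10.67, while GLI1, a target of active Hedgehog signalling, lay at background with 3.52, 3.31 and 3.55, as the ligand gene DHH did with 2.74, 3.10 and 3.02. CD24, a surface glycoprotein that the study names, read 7.11, 7.18 and 7.11 on its highest probe set.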

How the data were processed

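RNA of HEK293 cells was hybridised to 24 Affymetrix HG-U133 Plus 2.0 arrays, and the 3 arrays titled unstimulated control were used. What the authors deposited are log2 values of 54675 probe sets, computed with RMA in ArrayStudio, and no step was added to them. The 3 replicates are biological according to the study. RMA pools all arrays and compresses low values, so that a bound at background was needed.

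Probe sets were named through the platform table and updated by Entrez ID. Of 42898 named ones, 41098 stand for 1 gene and 1800, for several genes, were left out. The gene value is that of the probe set with the highest mean over the 3 arrays. Means, SDs and counts were computed in Python 3.11.15 with pandas 2.3.3. The code of the band calls was run on simulated levels whose bands lay well apart. That run says nothing about real genes near a bound, where levels are continuous. No test between conditions was made.

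The 42 lists and 13 symbol families were chosen with earlier results of these data known. Of 772 listed genes 65 were not analysed here. Named are all measured TNF ligands and receptors, complex, subunit and IκB genes, up to 4 of the highest and 2 of the lowest of each other list or family, the 15 highest genes, the most variable genes and genes the study names. Further members, among them CYLD, CXCL8, ICAM1, TNFRSF10C, FLT1, FLT4, ITGA4, GATA3, EMX2, PSMD5, were chosen after their values were seen. Promoter letters are from RefSeq, on GRCh38.p14, and 4391 measured genes had no window in that table. Alternatives were other bounds, another probe set per gene, probe sets left out or added, 2 further normalizations and each array left out in turn.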

Additional observations from a re-analysis of the deposited data

How the results depend on the processing

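The counts above background and in the high band were recomputed under 64 combinations of result and alternative, and 62 stayed within 1.5 times the value reported. With the bound set at the 95th percentile of olfactory receptor genes, at 4.80, 21 TNF-inducible genes lay above background in place of 13. With the 95th percentile of all genes in place of the 90th, 989 genes lay in the high band in place of 1978, by construction. Over all alternatives 47 to 55 TNF pathway genes, 143 to 211 receptors, 47 to 78 lineage markers and 6482 to 8919 genes at background were counted, with bounds of 4.80 to 5.59. Leaving out each array in turn gave 50 to 52 TNF pathway genes, 13 to 15 TNF-inducible genes, 176 to 183 receptors, 59 to 62 lineage markers, 7703 to 8022 genes at background and, since that band is a fixed share of all genes, 1978 in the high band. A background list without SFTPC and AMBN, chosen after seeing the data, set the bound at 5.37. No paired analysis was possible because the values describe 1 group and come from no test.

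Of 280 named genes 2 to 3 crossed the bound when an array was left out, and 21 crossed it with the median over the probe sets of a gene in place of the highest, which moved 161 of them by over 1 SD. The largest move of a named gene under that median was 8.35 on the log2 scale. Of 10523 genes with more than 1 probe set 40.6% had probe sets on both sides of the bound. The range between the probe sets of such a gene had a median of 2.34. The 3 arrays limit the precision, and a gene at background may still be transcribed below what its probes detect.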

Other observations

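Probe sets without a gene name were not counted among the genes. Of 11721 such probe sets other than controls, 2473 (21.1%) lay above the background bound on the mean of the 3 arrays and 210 lay in the high band, beside 54.5% of the probe sets of 1 gene above background.

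TCF3, a transcription factor of the E protein family, ranked among the 15 highest genes through 1 probe set at a mean of 13.35, while its other 13 probe sets ranged from 4.69 to 10.86. SFTPC reached 8.32 through 1 probe set, while its other 4 ranged from 4.32 to 5.92. AMBN, at 7.61, has 1 probe set here. CD24 has 6 probe sets, which ranged from 4.10 to 7.13, and PAX8, a kidney factor, has 8, which ranged from 3.14 to 6.25. WT1 has 1 probe set at 10.17 and another at 5.78.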
